A study of Mus musculus with 4 samples.

Results

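Short deletions joined through microhomology were collected from a meiotic recombination hotspot on chromosome 1 in testis DNA of mice lacking Mre11. Microhomology is a stretch of identical bases at both ends of the lost DNA, of which 1 copy remains at the join. The members were chosen by the deposited values for the join and the size, as deletions under 200 bp with at least 1 bp of microhomology. Calls that shared both edges were merged over libraries. The smallest measured 11 bp. This gave 266 distinct deletions of 659 distinct deletions in all, from 349 of 804 table rows. They carried 924 of the 2038 molecules and 1244 of the 3317 read pairs in the tables. Microhomology length, size, position, junction bases and molecule counts were part of the choice or lie in the same calls, so they are given as descriptions.

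All libraries came from C57BL/6 mice of genotype Mre11-/-, made with a conditional knockout allele and 5 to 7 weeks old. The cell type was labelled spermatocytes, and the DNA came from suspended testis cells. No marker of cell type can be read from DNA amplicons, so this label was not checked, and the Cre driver is not given in the sources used here. DNA of 3 mice was amplified separately in 4 overlapping amplicons of about 580 bp, with 576 PCRs of 22 cycles and an input of 9600000 haploid genomes for each amplicon. Products were then pooled into 1 library per amplicon, and the tables do not say which mouse gave which molecule. There were 0 control libraries, so nothing below measures an effect of the genotype.

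Meiotic breaks are made by the protein SPO11, which stays bound to the cut ends until the nuclease of the MRE11 complex removes it with a short piece of DNA. Broken ends are normally repaired from the homologous chromosome. Ends can also be rejoined directly, either with little or no shared sequence by non-homologous end joining or by pairing of short repeats that resection has exposed, as in joining by DNA polymerase theta. Microhomology-mediated joining is known for deleting 1 of the paired repeats and everything between them.

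The 100 bp that held the most deletion midpoints, chr1:33765002-33765101 on the plus strand of mm10, are shown first, because most members lie there. The sequence was rebuilt from the deposited reads, which gave 0 differing bases between overlapping amplicons.
The fullest 100 bp: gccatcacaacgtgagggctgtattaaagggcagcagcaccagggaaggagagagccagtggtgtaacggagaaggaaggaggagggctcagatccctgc
The letters A and G made up most of this stretch, with 38% G, 30.0% A, 20.0% C and 12% T.

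Members that carried many molecules or were found in many libraries are shown next. They are given as the undeleted plus strand with 15 bp on either side and both copies of the microhomology in capitals. In each case the left copy and all bases up to the right copy were lost, and the right copy remained. The first set holds members with 1 bp or 2 bp of microhomology that carried the most molecules, since they show how little shared sequence the commonest joins had.
The 52-bp deletion chr1:33765002-33765053: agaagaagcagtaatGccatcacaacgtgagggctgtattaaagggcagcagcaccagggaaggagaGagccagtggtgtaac
The 32-bp deletion chr1:33765022-33765053: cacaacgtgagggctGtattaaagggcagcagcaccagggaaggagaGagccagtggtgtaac
The 54-bp deletion chr1:33764999-33765052: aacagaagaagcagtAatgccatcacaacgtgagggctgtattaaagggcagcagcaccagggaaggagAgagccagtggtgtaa
The 45-bp deletion chr1:33765017-33765061: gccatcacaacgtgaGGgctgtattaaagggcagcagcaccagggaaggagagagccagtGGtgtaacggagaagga
The 20-bp deletion chr1:33765001-33765020: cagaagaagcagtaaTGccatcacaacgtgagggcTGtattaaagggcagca
All 5 lost DNA of the fullest 100 bp, and 3 of them ended at 33765052 or 33765053, beside the same run of alternating G and A.

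The second set holds members with 3 bp or more of microhomology that were found in the most libraries or carried the most molecules, since they show the longer repeats that were joined.
The 68-bp deletion chr1:33764997-33765064: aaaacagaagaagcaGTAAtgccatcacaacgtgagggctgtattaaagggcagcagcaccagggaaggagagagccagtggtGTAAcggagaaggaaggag
The 56-bp deletion chr1:33765029-33765084: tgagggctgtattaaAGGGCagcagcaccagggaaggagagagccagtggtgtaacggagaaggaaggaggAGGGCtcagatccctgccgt
The 32-bp deletion chr1:33765052-33765083: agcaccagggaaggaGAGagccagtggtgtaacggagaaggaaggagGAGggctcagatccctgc
The 69-bp deletion chr1:33765015-33765083: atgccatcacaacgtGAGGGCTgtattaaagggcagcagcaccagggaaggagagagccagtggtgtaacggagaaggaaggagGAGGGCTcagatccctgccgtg
The 31-bp deletion chr1:33765045-33765075: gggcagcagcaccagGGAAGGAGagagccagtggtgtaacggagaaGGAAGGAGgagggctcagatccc
The 22-bp deletion chr1:33765345-33765366: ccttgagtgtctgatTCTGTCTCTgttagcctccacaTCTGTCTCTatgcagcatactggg
The first 5 of these lie in or across the fullest 100 bp, and the 22-bp deletion lies to its right, at the longest microhomology of any member, 9 bp.

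The 4 amplicons together spanned chr1:33764688-33765556, a stretch of 869 bp within the gene Zfp451, which encodes a zinc finger protein and runs from 33761541 to 33815602. Whether the stretch is exonic or intronic was not analysed here. All amplicons shared the 280 bp from 33764983 to 33765262, called the common window below. The libraries held 81, 119, 79 and 70 members in amplicons 1 to 4, with 226, 446, 313 and 259 read pairs. The leftmost member of amplicon 4 began at 33765006, which is 23 bp from its first base, and members that began further left were found in amplicons 1 to 3 only.

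Most joins used very short microhomology. A single shared base was present in 135 members (50.8%, exact 95% interval 44.6% to 56.9%) and 2 bp in 73 members (27.4%, 22.2% to 33.2%). The remaining 58 members (21.8%, 17% to 27.3%) had 3 bp or more, with 22 at 3 bp, 12 at 4 bp, 7 at 5 bp, 6 at 6 bp, 5 at 7 bp, 5 at 8 bp and 1 at 9 bp. These intervals and those below cover counting error only. Distinct deletions share edges, the bases of a single stretch are not independent of each other, and PCR copies are not independent molecules. Among the 97 deletions of 200 bp or more that had microhomology, 34.0% had 3 bp or more (24.7% to 44.3%), against 21.8% of the members. The 2 intervals overlap, but overlap does not measure the difference, which was not tested. Short deletions without inserted bases and without microhomology, called blunt here, numbered 182, so that members were 59.4% of the 448 short deletions without inserted bases (54.7% to 64.0%). Inserted bases at the join were given for 31 short deletions, of which 1 had the edges of a member and 1 those of a blunt deletion.

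Of the sites that the sequence offers, those with microhomology were found deleted in a larger share than blunt ones, in each class. Every deletion of at least 11 bp and under 200 bp that the sequence of the common window allows was listed by its microhomology, counting each resulting sequence once. Of 18681 possible blunt deletions, 143 were observed (0.765%, 0.646% to 0.901%). Of 4494 possible deletions with 1 bp, 108 were observed (2.40%, 1.98% to 2.89%). With 2 bp, 67 of 1165 were observed (5.75%, 4.48% to 7.25%), and with 3 bp or more, 36 of 433 (8.31%, 5.89% to 11.3%). These shares were 3.14, 7.51 and 10.9 times the blunt share, with 95% intervals of 2.42 to 4.06, 5.53 to 10.1 and 7.32 to 15.7. The intervals for 2 bp and for 3 bp or more overlap. Many of these deletions share edges, so they are not independent of each other and no test is given.

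**Figure D1:**
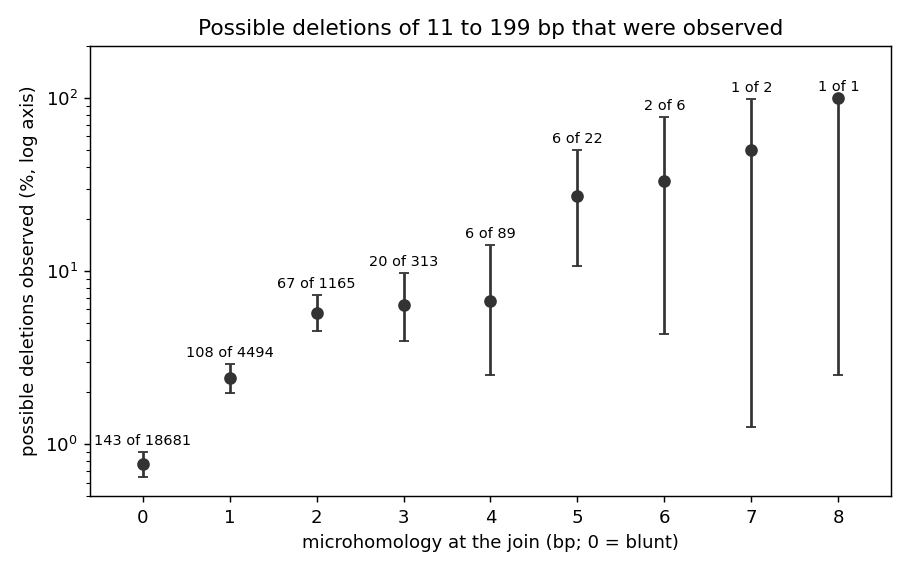
The share of possible deletions under 200 bp in the common window that was observed (vertical axis, percent, log scale) is plotted against microhomology at the join (horizontal axis, bp), with exact 95% binomial intervals and the counts behind each point. The share is 0.765% for blunt joins, 2.40% at 1 bp and 27.3% at 5 bp, where 6 of 22 possible deletions were observed, and beyond 5 bp the intervals are wide.

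Within the longer class the share was similar at 3 bp and 4 bp, where 20 of 313 (6.39%) and 6 of 89 (6.74%) possible deletions were observed. At 5 bp, 6 of 22 were observed (27.3%, 10.7% to 50.2%). At 6 bp 2 of 6, at 7 bp 1 of 2 and at 8 bp the only possible deletion were observed, and these counts are too small to order the lengths. A deletion with microhomology of m bp can arise from m + 1 pairs of break positions that all give the same sequence, and a blunt one from a single pair. Counted per pair of positions, the shares were 0.765% for blunt, 1.2% for 1 bp, 1.92% for 2 bp and 1.90% for 3 bp or more. The ratios to blunt were then 1.57 (1.21 to 2.03), 2.5 (1.84 to 3.37) and 2.48 (1.67 to 3.60). The ratio for 3 bp or more was thus 2.48 by pairs of positions and 10.9 by sequence.

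The fullest 100 bp were chosen by the members' own midpoints, so the shares there, and their ratios to blunt, are partly fixed by that choice and are given as a description only. With both edges inside, 66 of 2097 blunt deletions were observed (3.15%), 53 of 567 with 1 bp (9.35%), 25 of 158 with 2 bp (15.8%) and 20 of 60 with 3 bp or more (33.3%, 21.7% to 46.7%). The ratio of the last to blunt was 10.6 by sequence and 2.33 by pairs of positions (1.34 to 3.89). Divided by size in the common window, the ratio to blunt for 3 bp or more was 11.2 (6.31 to 18.9) for deletions up to 50 bp. Between 50 and 100 bp it was 8.89 (4.31 to 16.9), below the 10.4 (6.45 to 16.5) for 2 bp in that size range, with overlapping intervals. Between 100 and 150 bp it rested on 2 deletions, and above 150 bp on 3.

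Most members in each of the 3 classes were shorter than 100 bp. The 5 members with exactly 7 bp of microhomology were an exception, with a median of 169 bp and a range of 69 to 191 bp. Among them, the deletions of 169, 182 and 191 bp joined copies of the same repeat, CTGTCT, described further below. The median size was 56.5 bp over all members, with the middle range from 32 to 87.8 bp. It was 59 bp with 1 bp of microhomology, 57 bp with 2 bp and 55 bp with 3 bp or more. By library, the medians with 1 bp were 48, 59.5, 60 and 59 bp in amplicons 1 to 4, and those with 3 bp or more were 56, 43, 53 and 56 bp. The longer class was the larger in amplicon 1 and the smaller in the other 3 libraries. The difference, 3 bp or more minus 1 bp, averaged -4.63 bp (SD 10.1 over 4 libraries), which is less than its spread. The libraries are overlapping amplicons of the same mice and not replicates of a condition, so no test is given for this or for the other differences between classes.

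**Figure D2:**
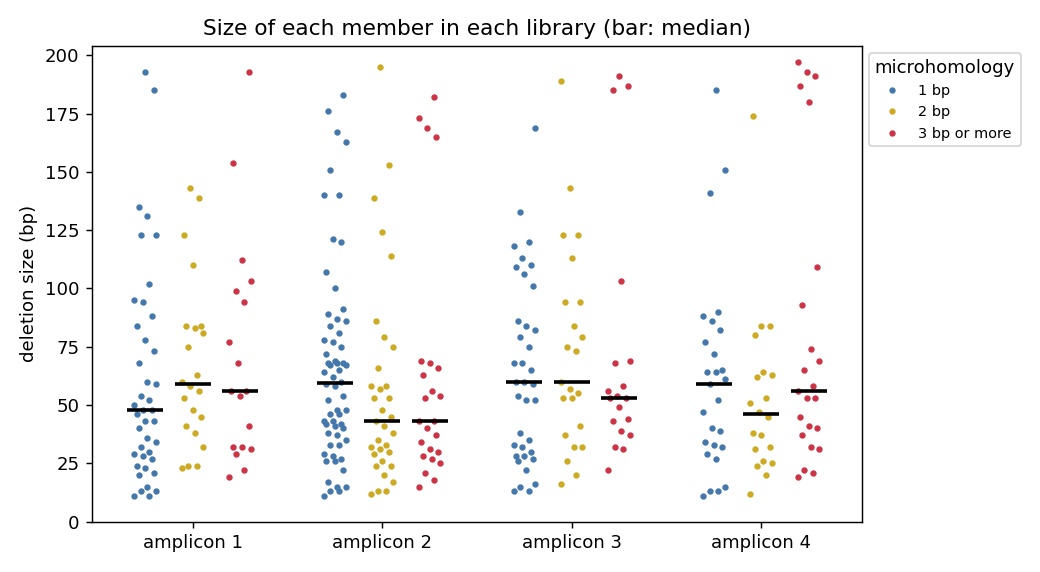
Deletion size in bp (vertical axis) is plotted for each member in each of the 4 amplicon libraries, coloured by microhomology of 1 bp, 2 bp, and 3 bp or more, with a bar at each median. The medians lie between 43 and 60 bp in every library, and points above 150 bp make up a larger part of the class with 3 bp or more.

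The class with 3 bp or more had the larger share at the upper end of the size range, as a description with no test. Of members with 3 bp or more, 12 of 58 (20.7%) measured more than 150 bp, against 9 of 135 with 1 bp (6.67%) and 4 of 73 with 2 bp (5.48%). Blunt deletions of that size numbered 13 of 182 (7.14%). In the common window, which all amplicons cover, the counts above 150 bp were 3 of 36 with 3 bp or more, 6 of 108 with 1 bp and 6 of 143 blunt, so most of the larger share came with members that reach into partly covered flanks. Over all amplicons, 3 members with 3 bp or more measured between 100 and 150 bp. Over all members, 117 measured up to 50 bp, another 94 up to 100 bp, a further 30 up to 150 bp and 25 more than 150 bp. Microhomology members measured less than blunt deletions in amplicons 1, 2 and 4, by median differences of -11, -8.5 and -9 bp, and 1 bp more in amplicon 3.

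The shortest members were 3 deletions of 11 bp, each with 1 bp of microhomology, at 33765052, 33765054 and 33765091. The longest, of 197 bp, had 4 bp of microhomology and ran from 33765296 to 33765492. Just inside the size limit lay 6 members of 191 to 197 bp with 1 to 7 bp of microhomology. Just outside it lay 10 deletions of 201 to 210 bp with 1 to 3 bp of microhomology.

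By midpoint, the share in the fullest 100 bp was highest with 2 bp of microhomology and lowest with 6 bp or more. Midpoints fell in the fullest 100 bp for 185 of the 266 members (69.5%), by which that window was chosen. The number was 94 of 135 with 1 bp (69.6%, 61.1% to 77.2%), 60 of 73 with 2 bp (82.2%, 71.5% to 90.2%) and 31 of 58 with 3 bp or more (53.4%, 39.9% to 66.7%). The intervals for 1 bp and 2 bp overlap. By both edges, which must then lie in the window, the order differed, with 39.3% for 1 bp, 34.2% for 2 bp and 34.5% for 3 bp or more. Blunt deletions had 112 of 182 midpoints there (61.5%). Within the longer class, 27 of 41 members with 3 to 5 bp had their midpoint in the window, and 4 of 17 with 6 bp or more. Of those 17, 5 lay to its left and 8 to its right. In bins of 50 bp, the 2 fullest held 95 midpoints (33765001 to 33765050) and 89 (33765051 to 33765100). All of the few midpoints up to 33764950 came from members with 3 bp or more, with 2 in the bin from 33764751, 3 in that from 33764851 and 1 in that from 33764901. In the next bin, up to 33765000, 13 of 16 midpoints came from members with 1 bp.

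**Figure D3:**
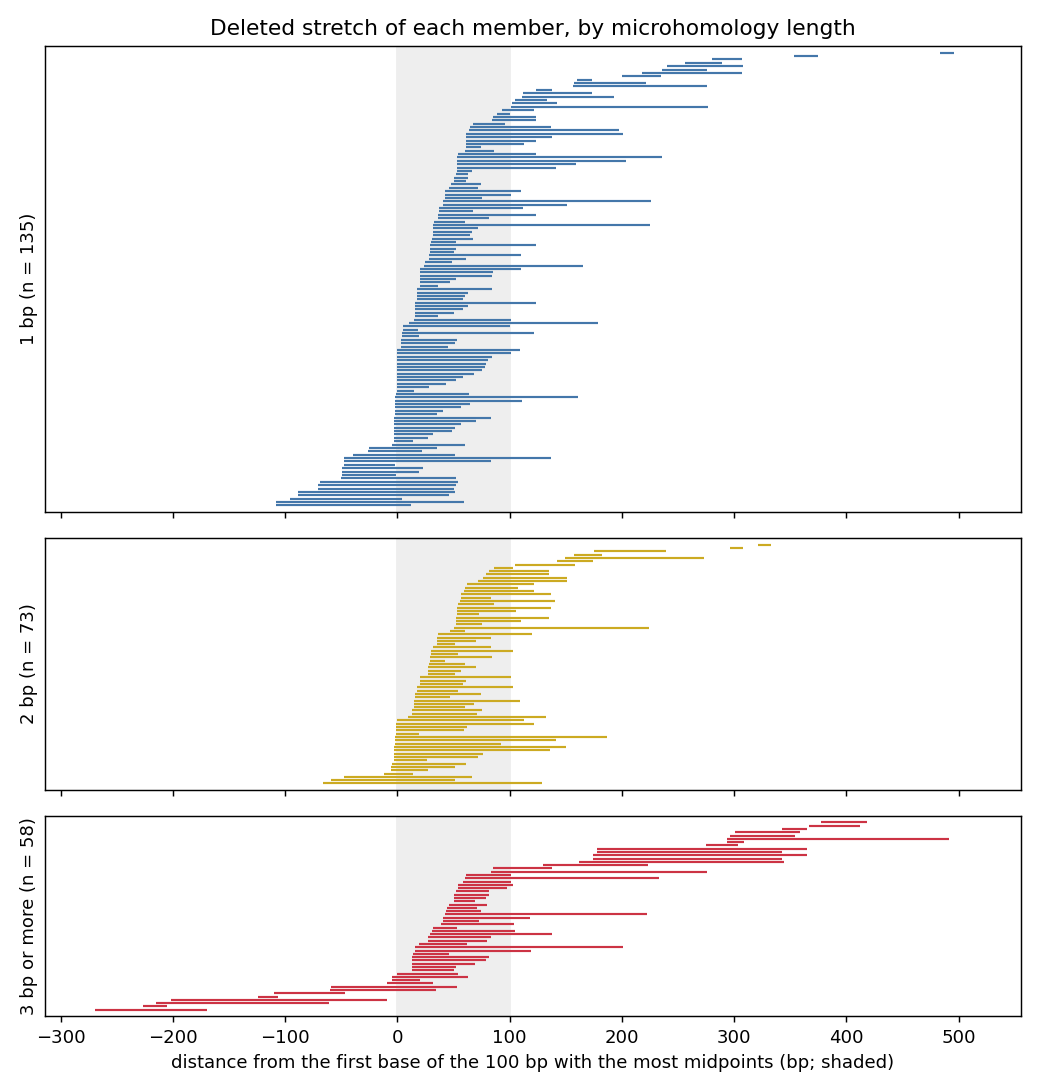
Each horizontal line is the deleted stretch of 1 member, placed by distance in bp from the first base of the fullest 100 bp (shaded) and stacked by left edge, in separate panels for 1 bp (135 members), 2 bp (73) and 3 bp or more (58) of microhomology. Lines of all classes crowd over the shaded stretch, and the bottom panel has 8 midpoints to its left and 19 to its right.

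By library, the share of midpoints in that window with 3 bp or more minus the share with 1 bp was -13.8, 0.538, -9.96 and -18.2 percentage points in amplicons 1 to 4. It was lower for the longer class in 3 of 4 libraries (mean -10.4, SD 8.01), as a description, since these midpoints chose the window. Among members lying wholly inside the common window, which all amplicons cover, the difference over merged deletions turned to 3.70 points higher for the longer class, from -16.2 points over all members. The common window surrounds the fullest 100 bp, so this restriction itself removes midpoints outside that stretch. The change therefore cannot show why the share was lower over all members, and the cause was not tested.

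Edges recurred on both sides. Members had 116 distinct left edges and 139 distinct right edges, and 196 members shared their left edge and 185 their right edge with another member. The left edge shared most was 33765002, the first base of the fullest 100 bp, with 15 members and 106 molecules. At this G, 13 members had 1 bp of microhomology, joining it to 13 different G bases, 1 had 2 bp and 1 had 4 bp. Another 20 blunt deletions began there. Next was 33764999, an A with 13 members and 56 molecules, of which 8 had 1 bp and 5 had 2 bp, and 0 blunt deletions. A further 9 members each began at 33765000, 33765018 and 33765022, and 8 at 33765055. The edges 33765019, 33765031, 33765034, 33765052 and 33765063 had 6 members each, and 33765001, 33765029 and 33765054 had 5 each. The edges up to 33765002 lie in the first 23 bp of amplicon 4, where that library showed no member.

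Longer microhomologies recurred at the left edge 33765015, where the sequence gagggct begins. Of its 7 members, 5 had 3 bp or more, joining GAG, GAGG or the whole GAGGGCT to copies further right, with sizes of 37 to 69 bp. The right edges shared most were 33765052 with 8 members, 33765053 with 7 members and 73 molecules, and 33765124 with 7 members that all had 1 bp of microhomology. Next came 33765061, 33765084 and 33765102 with 6 members each, and 33765064 and 33765123 with 5 each. The positions are those of the leftmost alignment, so for a member with m bp the true break may have lain up to m bp further right.

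Guanine was the base shared most often. Of the 550 microhomology bases of all members, 40.9% were G, 29.1% A, 15.1% T and 14.9% C, counted on the plus strand. The joint content of G and C was 55.8% (51.6% to 60.0%). Over the possible deletions in all amplicons it was 38.9%, but most members lie in the part richest in G and C, so the comparison is given by window. In the common window, 50.7% of the microhomology bases of members were G, against 32.9% over all possible microhomologies. With both edges in the fullest 100 bp the values were 62.8% and 48.4%. By class in that stretch, G made up 69.8% against 46.2% with 1 bp, 66.0% against 50.6% with 2 bp, and 56.3% against 51.2% with 3 bp or more. In the common window the values were 51.9% against 32.6%, 45.5% against 31.6%, and 54.6% against 35.7%. The gap was smallest in the longest class in the fullest 100 bp, but with 2 bp in the common window, so it had no steady order by length. The content of G and C was 61.6% against 53.2% in the common window and 71.6% against 63.1% in the fullest 100 bp.

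**Figure D4:**
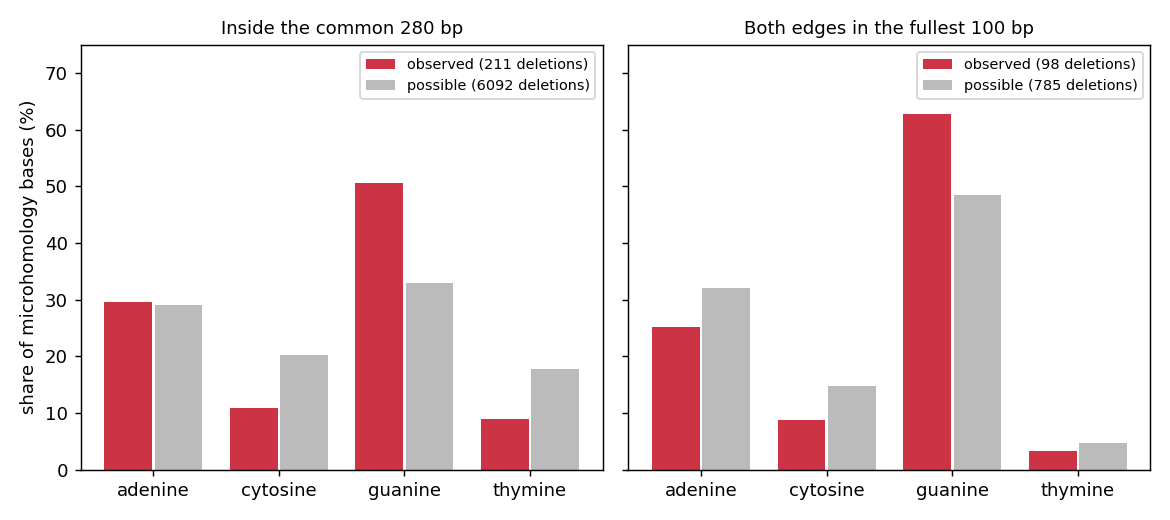
Bars give the share of microhomology bases (percent) that were adenine, cytosine, guanine or thymine on the plus strand, for members (red) and for all possible microhomology deletions of the same size range (grey), inside the common window and with both edges in the fullest 100 bp. Guanine is 50.7% against 32.9% in the first panel and 62.8% against 48.4% in the second.

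Part of the guanine share rests on single edges used many times. Of 53 members with 1 bp and both edges in the fullest 100 bp, 37 shared a G (69.8%), against 46.2% over the possible deletions. With each left copy counted once, 15 of 26 used left copies were G (57.7%), against 34 of 84 possible ones (40.5%). Over all members with 1 bp the shared base was G in 61, A in 44, T in 19 and C in 11. Among 2-bp members the commonest pairs were AG in 17, GG in 10, GA in 9, GC in 8, and AA and TG in 7 each.

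Among members with 3 bp or more, stretches of A and G alone were common, as they were among the possible deletions. There were 44 different stretches among the 58 members, and 8 of them occurred more than once, led by GAG in 6 members and AGG in 4. In the common window, 17 of 36 such members had stretches of A and G only (47.2%, 30.4% to 64.5%), against 148 of 433 possible deletions (34.2%), which lies within the interval. Stretches of C and T only occurred in 0 of 36, which allows a share of up to 9.74% (exact 95% limit), against 32 of 433 possible (7.39%). With both edges in the fullest 100 bp, stretches of A and G only made up 14 of 20 (70%), against 36 of 60 possible (60%). Stretches of C and T only were 0 of 20 there, and the sequence offers 0 of 60. These searches used the plus strand only.

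Matches beyond the microhomology were counted too, with no test, since members share edges. Over the 10 bp outside the microhomology on each side, leaving out the base that must differ, the ends of members with 1 bp were identical at 611 of 2160 positions in the common window (28.3%), against 25% for the possible deletions. With 2 bp it was 378 of 1340 (28.2%) against 25.2%. With 3 bp or more it was 175 of 720 (24.3%) against 24.8%. The share was thus above that of the possible deletions with 1 bp and 2 bp, and not with 3 bp or more. However, the possible deletions were spread over the whole common window, and members lay mostly in the fullest 100 bp. The base content differs between the 2, with 38% G in the fullest 100 bp and 28.6% in the common window. Identity was not compared within the fullest 100 bp, so these differences cannot be told apart from position.

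The member carrying the most molecules had a single shared base. The 52-bp deletion from 33765002, with a single G, had 6, 18, 21 and 0 molecules in amplicons 1 to 4, or 45 in all, from 9, 29, 37 and 0 read pairs. It was high in amplicons 2 and 3, and its left edge lies in the first bases of amplicon 4, which showed no member there. The 32-bp deletion from 33765022 had 8, 0, 3 and 8 molecules, and it shares its right edge and its right-hand G with the 52-bp deletion. The 54-bp deletion from 33764999, with a single A, had 4, 6, 8 and 0 molecules. The 38-bp deletion from 33765087 with a single G had 0, 5, 9 and 0 molecules, and the 84-bp deletion from 33765002 with a single G had 3, 5, 5 and 0.

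Among members with 2 bp, the 45-bp deletion from 33765017, with GG, led with 7, 9, 0 and 5 molecules. The 20-bp deletion from 33765001, with TG, had 0, 15, 4 and 0 molecules and thus came mainly from amplicon 2. The 32-bp deletion from 33765030, with GG, had 2, 0, 5 and 8 molecules and ended at the same base, 33765061, as the 45-bp one. The 41-bp deletion from 33765022, with GT, had 4, 4, 3 and 0 molecules, and the 84-bp deletion from 33765038, with GC, had 4, 0, 0 and 4. Its total of 8 was shared by a 57-bp deletion from 33764996 and a 38-bp deletion from 33765022.

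Of the longer class, the 68-bp deletion from 33764997, with GTAA, had the most molecules, 5, 9, 2 and 0. The 56-bp deletion from 33765029, with AGGGC, was found in all 4 libraries, with 1, 2, 6 and 4 molecules. The 32-bp deletion from 33765052, with GAG, had 7, 0, 2 and 0 molecules, and the 69-bp deletion from 33765015, with GAGGGCT, had 0, 2, 4 and 2. The 31-bp deletion from 33765045, with GGAAGGAG, was also in all 4 libraries, with 1, 3, 2 and 2 molecules. The 22-bp deletion from 33765345, with TCTGTCTCT, had 0, 0, 2 and 6 molecules, and it lies outside amplicon 1. Its right edge also lies close to the end of amplicon 2, at 33765375, where the rightmost member of that library ended at 33765345. The 69-bp, 31-bp and 22-bp deletions and a 40-bp deletion from 33765063 tied at 8 molecules.

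**Figure D5:**
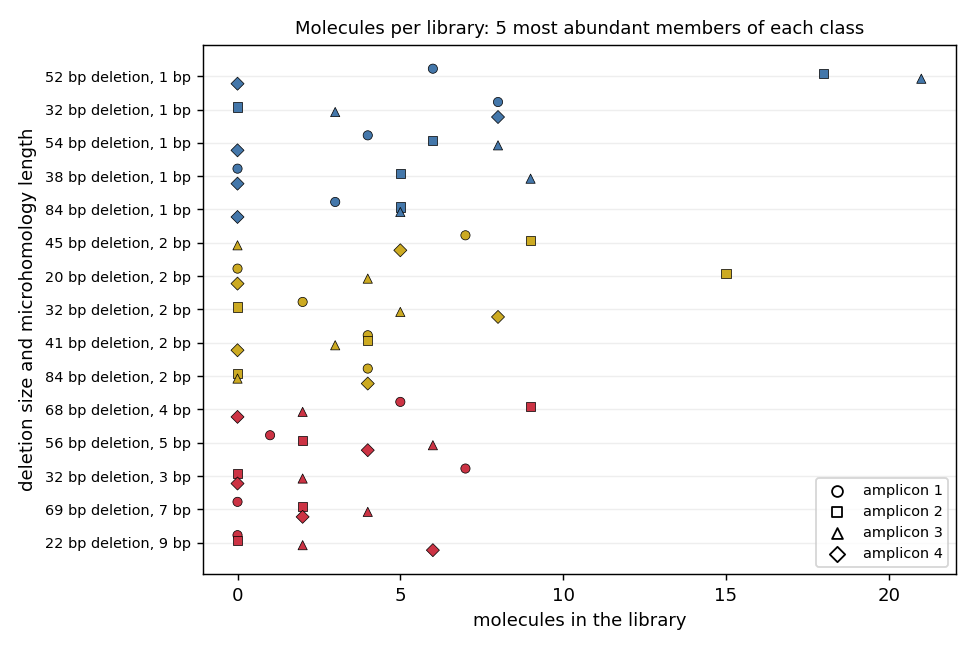
Molecules per library (horizontal axis) are plotted for the 5 members of each class that carried the most molecules (ties went to more read pairs, then to the lower start), with 1 symbol per amplicon and colour by microhomology of 1 bp (blue), 2 bp (yellow) and 3 bp or more (red). The 52-bp deletion with 1 bp reaches 18 and 21 molecules in amplicons 2 and 3, and the 56-bp deletion with 5 bp has 1 to 6 molecules in each of the 4 libraries.

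Per distinct deletion, the classes carried similar numbers of molecules. The mean over the merged tables was 3.40 with 1 bp, 3.70 with 2 bp and 3.36 with 3 bp or more, and 3.01 for blunt deletions. The medians were 2, 3 and 2. A single molecule stood behind 44 members with 1 bp (32.6%), 19 with 2 bp (26%) and 22 with 3 bp or more (37.9%), including 9 of the 17 with 6 bp or more. Within each library the mean was lower with 3 bp or more than with 1 bp, by -0.435, -0.306, -0.795 and -0.269 molecules in amplicons 1 to 4 (lower in 4 of 4). Summed over libraries the difference was -0.04, and it changed sign under several other settings. Members exceeded blunt deletions in mean molecules in 3 of 4 libraries, by 0.259, 0.217 and 0.219, and were at -0.0430 in amplicon 2.

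A larger share of members with longer microhomology was found in further libraries, by a margin close to its counting error. Of all 266 members, 205 were in a single library, 41 in 2, 18 in 3 and 2 in 4, and the last 2, of 31 bp and 56 bp, had 8 bp and 5 bp of microhomology. Since amplicons overlap only in part, recurrence was compared inside the common window. Even there, amplicon 4 showed no member that began before 33765006. A larger part of the members with 1 bp than of those with 3 bp or more began before that base. Over the whole common window, 24 of 108 members with 1 bp were in at least 2 libraries (22.2%, 14.8% to 31.2%). With 2 bp it was 19 of 67 (28.4%, 18.0% to 40.7%), and with 3 bp or more 14 of 36 (38.9%, 23.1% to 56.5%). For blunt deletions it was 30 of 143 (21.0%, 14.6% to 28.6%). The difference between 3 bp or more and 1 bp was 16.7 percentage points, with a Newcombe 95% interval of 0.0858 to 34.3 that nearly reaches 0.

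Among members with at least 2 molecules the shares were 31.6%, 36.5% and 56.0%, and 29.7% for blunt deletions. Restricted to deletions at least 20 bp inside the common window, so that primers lay further off, they were 13 of 79 (16.5%), 13 of 50 (26%) and 12 of 32 (37.5%), against 19 of 110 blunt (17.3%). All libraries drew on DNA of the same 3 mice, so a deletion in several libraries may be 1 event sampled again or separate events, which the tables cannot tell apart.

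Most of the 17 members with 6 bp or more of microhomology had their midpoint outside the fullest 100 bp, a window chosen by the midpoints of all members. The common window offers few such deletions, and 2 of 6 were observed at 6 bp, 1 of 2 at 7 bp and 1 of 1 at 8 bp. The placement of the 17 was not compared with that of all such repeats in the sequence. Of the 17, 4 had their midpoint in the fullest 100 bp. The 69-bp deletion with GAGGGCT, the 31-bp deletion with GGAAGGAG, the 65-bp deletion from 33765041 with CCAGGG (1 molecule) and the 27-bp deletion from 33765046 with GAAGGA (1 molecule) lay in or over it. The last lies within the stretch lost in the 31-bp deletion, and its left copy is an inner part of the left repeat of that deletion.

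To the left, in the part that amplicon 1 alone or amplicons 1 and 2 cover, 5 members with 6 bp or more were found. They were a 99-bp deletion from 33764733 with TAAGAGCA (2 molecules), a 22-bp deletion from 33764775 with AGTAGCAA (1 molecule), a 154-bp deletion from 33764787 with ACAGCTA (1 molecule), an 18-bp deletion from 33764878 with CAACCA (6 molecules) and a 63-bp deletion from 33764892 with CTTACA (1 molecule). All but the 18-bp deletion had 1 or 2 molecules. The 22-bp deletion joined copies that lie close together, as its undeleted sequence shows.
The 22-bp deletion chr1:33764775-33764796: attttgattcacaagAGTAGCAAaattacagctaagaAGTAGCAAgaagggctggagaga

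To the right, 6 of 8 members with 6 bp or more had the stretch CTGTCT in their microhomology, which was picked out after the values were seen. It occurs 5 times on the plus strand of the rebuilt 869 bp, starting at 33765164, 33765177, 33765181, 33765346 and 33765368. These copies allow 8 deletions of member size with the stretch in the microhomology, and 6 of the 8 were observed, with 21 molecules. The joined sequences are shown with the remaining copy in capitals, because 5 of these 6 make up 5 of the 12 members above 150 bp with 3 bp or more.
The 182-bp deletion chr1:33765164-33765345, joined: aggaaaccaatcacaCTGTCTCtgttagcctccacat
The 169-bp deletion chr1:33765176-33765344, joined: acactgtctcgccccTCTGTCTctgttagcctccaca
The 191-bp deletion chr1:33765176-33765366, joined: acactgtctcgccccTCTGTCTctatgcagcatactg
The 165-bp deletion chr1:33765180-33765344, joined: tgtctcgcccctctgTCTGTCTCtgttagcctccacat
The 187-bp deletion chr1:33765180-33765366, joined: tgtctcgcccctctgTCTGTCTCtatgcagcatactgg
The 187-bp deletion had 5 molecules and the 182-bp and 191-bp deletions 3 each. The 169-bp and 165-bp deletions had 1 molecule each. The sixth is the 22-bp deletion with TCTGTCTCT, and together these are 6 of the 11 members with 7 bp or more. The last 2 members with 6 bp were a 45-bp deletion from 33765369 with TGTCTC and a 41-bp deletion from 33765379 with CAGCAT, each with 1 molecule.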

How the data were processed

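Each amplicon has a table of junctions, in which the deposited counts of read pairs and molecules are whole and unnormalized, per the file headers. Each junction also has its edges, its size and its inserted or shared bases. BWA 0.7.17 and fastp 0.23.2 were used with mm10, per the submitters' processing notes. How junctions were called and molecules were counted was not given in the sources used here. Of the members, 196 were called within a single alignment.

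The members and the lists used here were chosen with earlier results of these data known. Rows with a negative insert length and a size under 200 bp were merged on both edges. The region was rebuilt from the reads, with at least 59 reads at every base, and all 349 member rows matched it in bases and length. In 3 short blunt rows the sequence allowed microhomology, and the deposited value was kept. Possible deletions were enumerated at their leftmost position. Shares have exact Clopper-Pearson intervals and ratios conditional exact ones, all at 95%. The planned exact sign-flip permutation test over the 4 libraries cannot give a p below 0.13 (rounded) and is not reported, because size, position and microhomology are part of the choice of members. No paired analysis of replicates arises, since each amplicon is 1 library.

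Deletions named are the 5 with the most molecules per class (ties to more read pairs, then the lower start), all with 6 bp or more, all found in 4 libraries, the shortest, the longest and those near the size limit, and edges shared by at least 5 members. Alternatives covered read support, merging of edges within 3 bp, size, weighting, window, and leaving out each amplicon. The left alignment of junctions, the ratio of shares and the sign-flip test were checked on simulated data. The rebuilding and the enumeration were not. Python 3.11.15, numpy 2.4.6, pandas 2.3.3, scipy 1.17.1 and matplotlib 3.10.9 were used.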

Additional observations from a re-analysis of the deposited data

How the results depend on the processing

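Of 93 values recomputed under other settings, 74 did not reverse and stayed within the stated spread or within 1.5 times the count. Of the rest, 10 reversed sign and 9 moved beyond those limits. The 266 members fell to 148 with at least 3 read pairs. The content of G and C in the microhomology, 55.8%, was 60.7% when weighted by read pairs. The use ratio of 3 bp or more to blunt, 10.9, was 2.48 per pair of break positions (chosen after seeing the data), and 3.46 when set against 1 bp in place of blunt. The difference in the share of midpoints in the fullest 100 bp, -16.2 percentage points over all members, was -8.10 with at least 3 read pairs, -7.75 in the fullest 50 bp, -5.33 by left edge, and 3.70 inside the common window. The difference in median size, -4 bp, was 2 bp when weighted by read pairs, 0 bp when weighted by molecules or restricted to sizes up to 100 bp, -10.5 bp with at least 2 read pairs and -11.5 bp with at least 3. It ranged from -7 to 4 bp when each amplicon was left out, with 2 bp without amplicon 2 and 4 bp without amplicon 3. The difference in mean molecules, -0.0379, was 0.465 with at least 2 read pairs, 0.0381 with at least 3, 0.114 up to 100 bp, 0.222 inside the common window, 0.0878 without microhomology of 6 bp or more (chosen after seeing the data) and -0.441 with edges merged within 3 bp. It ranged from -0.342 without amplicon 4 to 0.120 without amplicon 1. The cause of these shifts was not tested. No paired analysis was possible because each amplicon is a single library. The tables list no reads without a deletion and no control libraries, so no frequency per depth and no genotype effect could be given. Classes with 6 bp or more hold 17 members, too few for shares to be precise.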

Other observations

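Of 348 member reads compared with the rebuilt region, 212 had no mismatch outside the join and 2 had more than 5. One belonged to the 94-bp deletion chr1:33764942-33765035 in amplicon 1, where the second of its reads had 27 mismatches over 285 bp. The other belonged to the 41-bp deletion with CAGCAT in amplicon 4, with 6 mismatches over 354 bp.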
